A study of Mus musculus with 4 samples.

Results

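Integrins are surface receptors made of an α and a β chain, and each heterodimer binds its own ligands on other cells or in the matrix. The 10 integrin genes described here are *Itgal*, *Itgb2*, *Itga4*, *Itgb1*, *Itgb7*, *Itgav*, *Itgb3*, *Itgae*, *Itgam* and *Itga6*, which were selected by gene name from the 24369 genes listed. All 10 had enough counts to be tested (of 14143 genes tested). They encode the chains of LFA-1 (αLβ2), of Mac-1 (αMβ2), of the α4 integrins VLA-4 (α4β1) and α4β7, of the E-cadherin receptor αEβ7, of αVβ3 and αVβ1, and of the laminin receptor α6β1. T cells use LFA-1 to hold on to ICAM-1 on antigen presenting cells and endothelium, VLA-4 to bind VCAM-1 and fibronectin, and α4β7 to bind MAdCAM-1 in gut vessels. Activation through the T cell receptor switches these receptors from a bent, low-affinity shape to an extended, high-affinity one through talin and kindlin, so transcript level is one of several controls on adhesion.

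The libraries were made from naïve CD4 T cells of the spleens of WT C57BL/6 mice. The cells were activated without polarizing cytokines with anti-CD3 fixed to the plate, with anti-CD28 in solution and, according to the methods, with human IL-2 (the treatment labels of both groups name anti-CD28 a second time in the place of IL-2). On day 2 they received an MSCV retrovirus carrying GFP alone (EV RV, 2 libraries) or Tox and GFP (Tox RV, 2 libraries), and on day 5 they were restimulated through the T cell receptor and sorted for CD4 and GFP. Tox was therefore driven by a viral promoter in cells chosen for GFP, and the libraries of a group are described as coming from different mice, whose age is not given in the sources used here.

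Each library held 46989997 to 74548723 expected counts, the estimate of reads per gene from RSEM. *Tox* was at 11.7 and 5.73 CPM (counts divided by the TMM-scaled library total and multiplied by 1000000) in the EV RV libraries and 121 and 99.9 CPM in the Tox RV libraries, which puts every library on the side of its label. Values of a group are given with replicate 1 before replicate 2 throughout. EV RV replicate 1 stood apart from the other 3 libraries on the first principal component (-53.8 against 5.70 to 25.8), and the 45S pre-rRNA gene *Rn45s* took 24.7% of its counts against 7.14% to 11.97% elsewhere. The 7 markers of CD4 T cells were all tested, and summed to 2349 and 1611 CPM in the EV RV and 2295 and 1950 CPM in the Tox RV libraries. In log2 fold change of Tox RV over EV RV, 4 were above and 3 below 0, from -0.84 (*Cd3e*) to 0.41 (*Cd3g*). *Cd4* itself lay between 324 and 479 CPM. In bulk RNA, fewer cells that express a gene and less RNA of it per cell cannot be told apart.

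The integrin repertoire was led by *Itgb7*, *Itgb2*, *Itgal* and *Itgb1*. Levels between genes are compared in TPM, which corrects for transcript length. Over the 4 libraries *Itgb7* ranged from 124 to 230 TPM, *Itgb2* from 143 to 194 TPM, *Itgal* from 103 to 259 TPM and *Itgb1* from 118 to 198 TPM. These ranges overlapped, and a different gene was the highest in each library, namely *Itgal* in EV RV replicate 1, *Itgb1* in EV RV replicate 2, *Itgb7* in Tox RV replicate 1 and *Itgb2* in Tox RV replicate 2. *Itgav*, the α chain of the vitronectin receptors, came next at 38.4 to 49.6 TPM and lay below the leading 4 genes in every library. *Itgb3*, its classical partner, ranged from 19.7 to 42.9 TPM and *Itga4* from 14.3 to 33.7 TPM, so these ranges overlapped too. *Itga6* (5.99 to 9.30 TPM) and *Itgae* (3.85 to 11.5 TPM) were lower still, and each of them was the higher one in 2 libraries. *Itgam*, the α chain of Mac-1 and a marker of myeloid and NK cells, was last at 0.0900 to 0.230 TPM. The order by mean level was the same when the expected counts were converted to RPKM with TMM scaling.

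**Figure D1:**
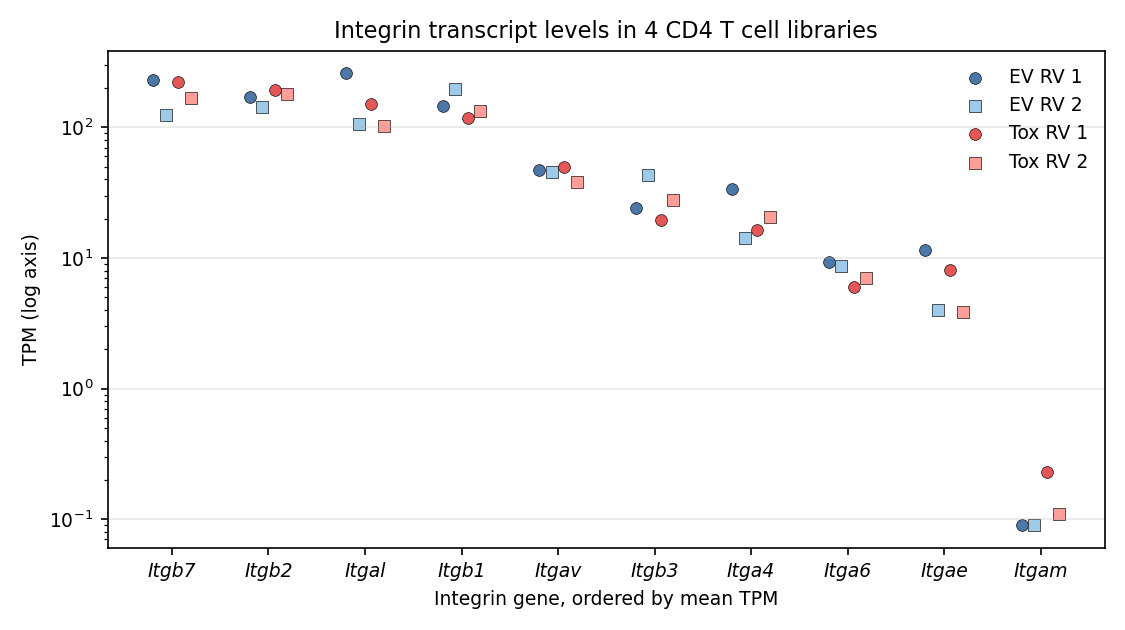
TPM of the 10 integrin genes on a log axis, 1 point per library, with genes ordered by their mean. *Itgb7*, *Itgb2*, *Itgal* and *Itgb1* lie above 100 TPM in every library and *Itgam* lies below 0.3 TPM.

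The members made up nearly all integrin mRNA. Of the 18 α subunit genes, the 6 among the members held 96.1% to 96.4% of the summed TPM in each library, and of the 8 β subunit genes the 4 members held 99.5% to 99.7%. *Itgal* alone gave 69.3% and 56.9% of α subunit TPM in EV RV cells and 62.6% and 57.3% of it in Tox RV cells. *Itgav* was second, with 12.5% and 24.7% in the EV RV and 20.7% and 21.3% in the Tox RV libraries. Among the β chains, *Itgb2* had 29.7% and 28.0% of the TPM in EV RV cells and 34.9% and 35.1% of it in Tox RV cells. It was the only one of the leading 3 whose share did not overlap between the groups. In CPM 36.0% of all genes did not overlap, and no such figure was computed for shares. *Itgb2* was therefore not taken to stand out by its share. *Itgb7* had 40.1% and 24.3% in EV RV cells and 40.004% and 33.1% of it in Tox RV cells, and *Itgb1* had 25.4%, 38.7%, 21.2% and 25.9% in the same order. The summed TPM of β subunits was steady (511 to 572), while that of α subunits was 374 in EV RV replicate 1 and 180 to 240 in the other libraries.

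**Figure D2:**
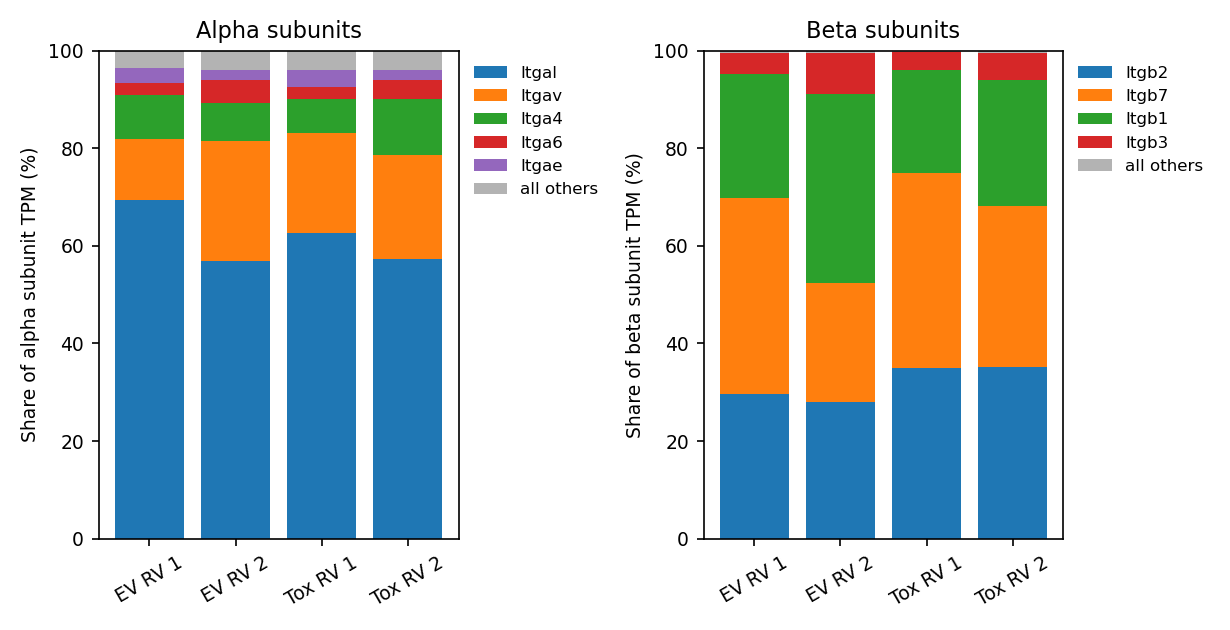
Stacked bars of each subunit's share (%) of the summed TPM of all α (left) or all β (right) subunit genes, 1 bar per library. *Itgal* takes 56.9% to 69.3% of the α bars, and the β bars differ mainly in how *Itgb7* and *Itgb1* divide them.

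For Tox RV against EV RV, the quasi-likelihood test of edgeR (p-values adjusted by Benjamini-Hochberg) called 0 of the 10 members at an adjusted p-value below 0.05, the same as the background of 0% over all genes tested. No member reached an unadjusted p-value below 0.05 either, against 3.62% of all genes. DESeq2, the tool of the study's methods, also called 0 members, against 0.121% of the genes to which it gave an adjusted p-value. The mean level was higher in Tox RV cells for 4 members and lower for 6, none past a test, and their median log2 fold change was -0.27, against 0.00361 over all genes tested. This median was 0.36 without EV RV replicate 1 and -0.0038 without Tox RV replicate 2. In 4 members the CPM of the groups did not overlap, a share of members near the 36.0% of all genes with that arrangement. With scaling by library totals 3 members did not overlap, and *Itgb1* was no longer among them. *Itgb2* and *Itgam* were the 2 on the higher side (18.6% of all genes) and *Itgb1* and *Itga6* the 2 on the lower side (17.4% of all genes). For *Itgb2* and *Itga6* the gap between the group means of log2 CPM was larger than the gap between the replicates of either group, and in the other 8 members it was not. How many of all genes show such a gap was not computed, so these 2 members were not taken to stand out by it.

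*Itgb2* encodes the β2 chain (CD18), which pairs with αL and αM and is needed for their transport to the surface. It lies on chromosome 10 of mm10 (77530252 to 77565708, plus strand). The level was 276 and 245 CPM in the EV RV libraries and 342 and 316 CPM in the Tox RV libraries. The groups did not overlap, and Tox RV cells were the higher, at 329 ± 18.4 CPM (SD, n = 2) against 261 ± 22.0 CPM (SD, n = 2) in EV RV cells. The difference was 0.34 on the log2 scale (standard error, SE, 0.17, 95% interval -0.08 to 0.75, edgeR adjusted p = 0.897), and leaving out any 1 library gave 0.26 to 0.42.

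*Itgal* encodes αL (CD11a), the partner of β2 in LFA-1, and lies on chromosome 7 (127296260 to 127335138, plus strand). It had 787 and 337 CPM in the EV RV libraries and 495 and 340 CPM in the Tox RV libraries. EV RV replicate 1 was the highest library and EV RV replicate 2 the lowest, so both Tox RV libraries fell inside the EV RV range. The log2 fold change of -0.43 (SE 0.42, 95% interval -1.47 to 0.61, edgeR adjusted p = 0.897) turned to 0.30 without EV RV replicate 1 and went to -0.91 without EV RV replicate 2. The TPM ratio of *Itgal* to *Itgb2* was 1.53 and 0.737 in the EV RV and 0.774 and 0.575 in the Tox RV libraries, so the α chain exceeded its partner in EV RV replicate 1 alone.

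*Itgam* encodes αM (CD11b) and lies on the same chromosome as *Itgal* (128062640 to 128118491, plus strand). Few reads fell on it, 11 and 19 counts in EV RV cells and 44 and 17 counts in Tox RV cells. As CPM these were 0.261, 0.2496, 0.696 and 0.328, and Tox RV replicate 1 was the highest. The log2 fold change of 1.01 (SE 0.57, 95% interval -0.40 to 2.42, edgeR adjusted p = 0.897) was 0.35 without Tox RV replicate 1. On the log2(TPM + 1) scale, which damps low genes, it was 0.10. The 10 myeloid markers summed to 4.53 and 5.89 CPM in the EV RV and 5.61 and 4.45 CPM in the Tox RV libraries, 4 of 10 could be tested, and *S100a8* and *S100a9* were at 0 counts in all libraries. *Cd68* made up most of that sum at 3.06 to 4.28 CPM, and the part of myeloid cells in the *Itgam* values was not tested.

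The α4 chain (CD49d) pairs with β1 or β7, so that *Itga4*, *Itgb1* and *Itgb7* together set which α4 integrin can form. The upstream windows of these 3 genes are shown because the β chains divided the β subunit mRNA in different ways from library to library. They are the 250 bases before the RefSeq start (GRCm38.p6, the assembly of mm10), read on the strand of the gene. The windows are chr2:79255176-79255425 (plus strand) for *Itga4*, chr8:128685404-128685653 (plus strand) for *Itgb1* and chr15:102231936-102232185 (minus strand) for *Itgb7*. Capitals mark matches on either strand to the letters TGTGGT (RUNX), AGGAAG (ETS) or TGANTCA (AP-1), which do not overlap each other here.

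Itga4: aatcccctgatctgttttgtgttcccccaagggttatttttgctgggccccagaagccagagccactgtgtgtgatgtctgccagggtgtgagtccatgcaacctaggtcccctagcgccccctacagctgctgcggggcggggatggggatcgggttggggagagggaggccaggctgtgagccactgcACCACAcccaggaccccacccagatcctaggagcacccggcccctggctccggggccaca

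Itgb1: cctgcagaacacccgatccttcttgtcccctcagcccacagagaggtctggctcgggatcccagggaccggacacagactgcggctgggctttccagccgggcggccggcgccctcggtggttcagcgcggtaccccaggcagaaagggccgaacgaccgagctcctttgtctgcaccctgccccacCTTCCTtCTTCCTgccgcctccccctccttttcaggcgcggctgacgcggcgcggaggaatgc

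Itgb7: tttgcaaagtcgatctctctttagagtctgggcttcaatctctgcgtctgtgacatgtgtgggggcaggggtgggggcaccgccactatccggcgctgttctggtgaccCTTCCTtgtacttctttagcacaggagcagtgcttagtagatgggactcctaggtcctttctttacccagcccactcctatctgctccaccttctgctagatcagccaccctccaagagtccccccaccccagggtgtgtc

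The *Itga4* window held 1 match to the RUNX letters, which occur in 14.0% of the 32851 upstream windows of the same length. *Itgb1* held 2 matches to the ETS letters next to each other and *Itgb7* held 1, against 29.5% of all windows with at least 1. The AP-1 letters, in 6.75% of all windows, matched none of the 3. A match describes the letters and is not a binding site.

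*Itga4* (chromosome 2, 79255426 to 79333123, plus strand) had 195 and 87.2 CPM in the EV RV libraries and 104 and 129 CPM in the Tox RV libraries. The Tox RV libraries again lay between the EV RV libraries, which differed by 1.16 on the log2 scale. The log2 fold change was -0.28 (SE 0.38, 95% interval -1.23 to 0.67, edgeR adjusted p = 0.910), 0.41 without EV RV replicate 1 and -0.74 without EV RV replicate 2. An exon of *Itga4* overlaps *Cerkl* on the other strand, and use of strand in counting is not given in the sources used here. *Cerkl* had 43 to 75 counts per library against 6586 to 8241 for *Itga4*.

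*Itgb1* encodes β1 (CD29), the shared chain of the VLA integrins, and lies on chromosome 8 (128685654 to 128733200, plus strand). Its level was 352 and 504 CPM in the EV RV libraries and 310 and 348 CPM in the Tox RV libraries. The groups did not overlap, and Tox RV cells were the lower, with only a narrow gap between Tox RV replicate 2 and EV RV replicate 1. Over the EV RV libraries this was 428 ± 107 CPM (SD, n = 2), and over the Tox RV libraries 329 ± 27.1 CPM (SD, n = 2). This gave a log2 fold change of -0.38 (SE 0.22, 95% interval -0.93 to 0.17, edgeR adjusted p = 0.897), which shrank to -0.09 without EV RV replicate 2 and grew to -0.62 without EV RV replicate 1.

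*Itgb7*, the β chain of the gut-homing integrin α4β7 and of αEβ7, lies on chromosome 15 (102215995 to 102231944, minus strand). It had 350 and 199 CPM in the EV RV libraries and 368 and 280 CPM in the Tox RV libraries. EV RV replicate 2 was the low library, and EV RV replicate 1 lay between the Tox RV libraries. Its log2 fold change was 0.24 (SE 0.31, 95% interval -0.52 to 1.00, edgeR adjusted p = 0.905), 0.69 without EV RV replicate 1 and -0.11 without EV RV replicate 2. The TPM ratio of *Itgb7* to *Itgb1* was 1.58 and 0.628 in the EV RV and 1.89 and 1.27 in the Tox RV libraries, so *Itgb1* mRNA exceeded *Itgb7* mRNA in EV RV replicate 2 alone. *Itga4* was the scarce chain in every library, at 0.0723 to 0.232 of *Itgb1* and 0.0744 to 0.147 of *Itgb7* in TPM.

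*Itgae* encodes αE (CD103), which pairs with β7 and holds T cells to epithelial E-cadherin. It lies on chromosome 11 (73090583 to 73147446, plus strand). The values were 25.2 and 9.25 CPM in the EV RV libraries and 19.3 and 9.21 CPM in the Tox RV libraries, so replicate 1 was more than 2-fold above replicate 2 in both groups. In log2 fold change this was -0.27 (SE 0.55, 95% interval -1.63 to 1.09, edgeR adjusted p = 0.933), with 0.62 without EV RV replicate 1, -0.90 without Tox RV replicate 1 and 0.17 without Tox RV replicate 2. Over the whole list of 7 CD8 T and NK cell markers, of which 6 could be tested and *Ncr1* was at 0, the summed CPM was 136 and 125 in the EV RV and 105 and 82.5 in the Tox RV libraries. Most of that sum was *Eomes*, a transcription factor gene of effector T and NK cells, at 79.8 and 109 CPM in EV RV and 72.2 and 71.2 CPM in Tox RV cells, which did not follow *Itgae*. *Cd8a* (1.54 to 2.14 CPM) was also not highest in the replicate 1 libraries. *Klrd1*, *Klrk1*, *Klrb1c* and *Cd8b1*, named after their values were seen, were higher in replicate 1 than in replicate 2 of both groups, for example *Klrd1* at 14.2, 1.90, 10.2 and 1.99 CPM. The part of NK-like or CD8 T cells in the *Itgae* values was not tested.

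*Itgav* (αV, chromosome 2, 83724397 to 83806916, plus strand) differed least between libraries, by the ratio of its highest to its lowest CPM. It had 194 and 199 CPM in the EV RV libraries and 223 and 172 CPM in the Tox RV libraries, so the EV RV libraries fell between the Tox RV libraries. The log2 fold change was 0.01 with a 95% interval of -0.47 to 0.48 (SE 0.19, edgeR adjusted p = 0.996), and it moved between -0.20 without Tox RV replicate 1 and 0.18 without Tox RV replicate 2. Its sign also changed with RLE scaling (-0.000193) and with totals that leave out *Rn45s* (-0.033). *Itgb3* (β3, CD61, chromosome 11, 104608000 to 104670476, plus strand) varied far more, with 81.7 and 153 CPM in the EV RV and 72.2 and 102 CPM in the Tox RV libraries. EV RV replicate 2 was the high library and the others overlapped. Its log2 fold change of -0.43 (SE 0.34, 95% interval -1.27 to 0.41, edgeR adjusted p = 0.897) was -0.82 without EV RV replicate 1 and 0.10 without EV RV replicate 2. The ratio of *Itgav* to *Itgb3* in TPM was 1.94 and 1.07 in the EV RV and 2.52 and 1.38 in the Tox RV libraries. Platelets also carry β3, and the 6 platelet genes summed to 1.09 to 2.04 CPM, most of it *Itga2b* (0.893 to 1.71 CPM), with *Pf4* at 0. Their part in the *Itgb3* values was not tested.

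*Itga6* encodes α6 (CD49f), which binds laminins together with β1, and lies on chromosome 2 (71745616 to 71858416, plus strand). Its 32.6 and 32.04 CPM in the EV RV libraries were nearly alike, and both exceeded the 22.8 and 26.8 CPM of the Tox RV libraries. The means were 32.3 ± 0.405 CPM (SD, n = 2) for EV RV and 24.8 ± 2.88 CPM (SD, n = 2) for Tox RV. The log2 fold change was -0.38 (SE 0.18, 95% interval -0.82 to 0.06, unadjusted p = 0.0768, edgeR adjusted p = 0.897). This was the smallest unadjusted p-value among the members, and with each library left out the value stayed between -0.50 and -0.27. *Itga6* was also the member whose mean transcript length moved most between libraries. RSEM weights the length of a gene by the abundance of its transcripts, and over the 2 transcripts of *Itga6* it came to 6011 and 6007 bases in the EV RV and 5997 and 5985 bases in the Tox RV libraries. It was shorter in Tox RV cells in each case, by at most 26.1 bases, and no test was made on this value. How many other genes have lengths arranged in this way was not computed. The lengths of *Itgae* (2 transcripts) ranged over 6.75 bases, while those of *Itgal* (4 transcripts) and *Itgam* (2 transcripts) moved by less than 1 base, and the other 6 members have 1 transcript in the reference.

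**Figure D3:**
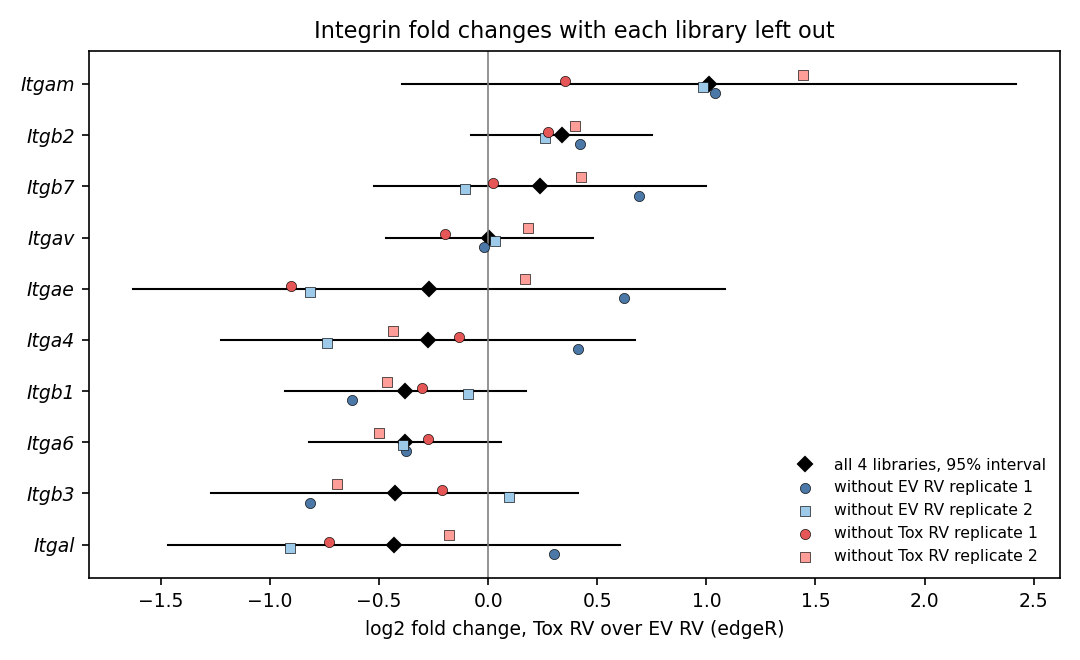
Log2 fold change of each member (diamond, all 4 libraries) with its 95% interval, and the value with each library left out (coloured points). Every interval crosses 0, and the points of *Itgal*, *Itga4*, *Itgae*, *Itgb3*, *Itgb7* and *Itgav* lie on both sides of 0.

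Most members differed more between the EV RV libraries than between the groups. The replicate gap in log2 CPM was wider in EV RV than in Tox RV cells for 7 of the 10 members, and was 1.22 for *Itgal*, 1.16 for *Itga4* and 1.45 for *Itgae* in EV RV cells. Among all genes tested, the absolute EV RV gaps of these 3 members lay at the percentiles 93.3, 92.4 and 95.8, while those of *Itga6*, *Itgav*, *Itgam* and *Itgb2* lay at 3.53, 5.90, 7.76 and 24.4. Over all genes the SD of the log2 difference between replicates was 0.685 in EV RV and 0.441 in Tox RV cells. Without EV RV replicate 1, 4 of the 10 members had an unadjusted p-value below 0.05, against 7.49% of all genes in that fit. They were the 4 β chains, with *Itgb2* (0.42) and *Itgb7* (0.69) higher and *Itgb1* (-0.62) and *Itgb3* (-0.82) lower in Tox RV cells on the log2 scale. Their adjusted p-values were 0.396 to 0.574 in edgeR's quasi-likelihood test. Without EV RV replicate 2, *Itgal* (-0.91) and *Itga4* (-0.74) had an unadjusted p-value below 0.05, against 29.7% of all genes in that fit, and their edgeR adjusted p-values were 0.0782 and 0.0666. Without Tox RV replicate 1 this held for *Itgae* (-0.90) alone, 1 of 10 members against 2.25% of all genes, and without Tox RV replicate 2 for 0 members against 2.34% of all genes. In fits that leave 1 library in an arm, that library is assumed to vary like the other group.

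Likeness of the members' profiles was measured as the root mean square difference of log2 CPM, each gene centred on its own mean over the 4 libraries, for the 45 pairs of members. The most alike pair was *Itgb1* and *Itgb3* (0.179), followed by *Itgb1* and *Itga6* (0.194), *Itgb2* and *Itgav* (0.208) and *Itgal* and *Itgae* (0.211). *Itgb1* and *Itgb3* were highest in EV RV replicate 2 and lowest in Tox RV replicate 1. *Itgal*, *Itgae* and *Itga4* were highest in EV RV replicate 1, and *Itgb7*, *Itgb2* and *Itgav* in Tox RV replicate 1. The 2 chains of LFA-1 were less alike (0.521) than these pairs. With 4 libraries, these distances describe the libraries only.

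**Figure D4:**
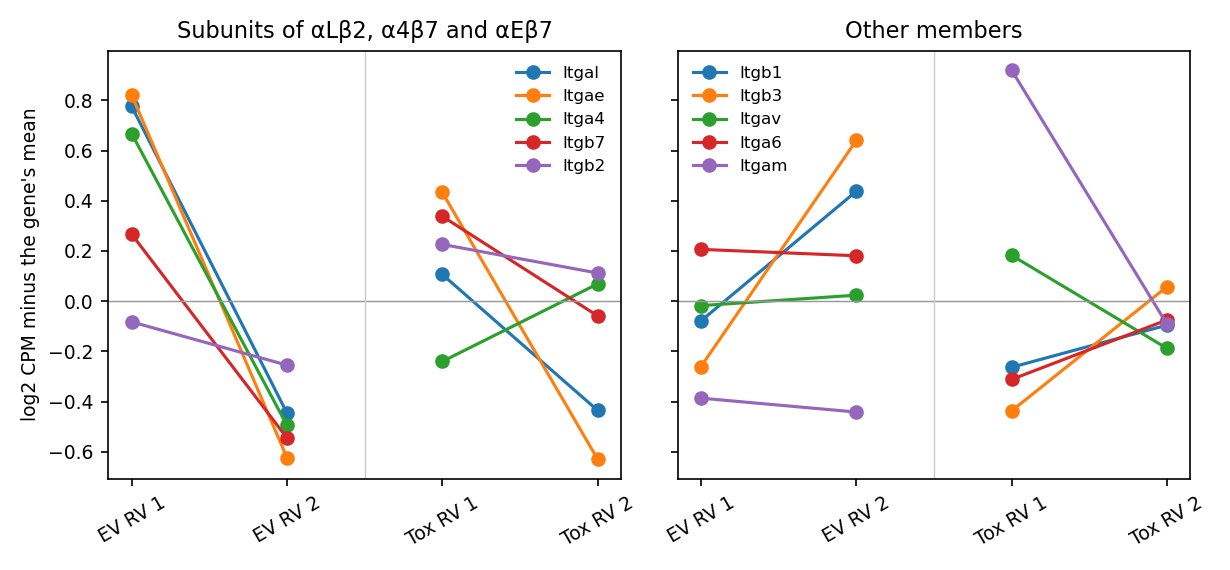
Log2 CPM of each member minus its own mean over the 4 libraries, with lines joining the libraries of a group for reading only. *Itgal*, *Itgae* and *Itga4* are highest in EV RV replicate 1, and *Itgb1* and *Itgb3* are highest in EV RV replicate 2.

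The other 16 integrin subunit genes were low. Of these 11 could be tested, and 5 were above and 6 below 0 in log2 fold change, with a median of -0.01 and 0 past an adjusted p-value of 0.05. The groups did not overlap with Tox RV higher in 2 of the 11 (18.6% of all genes) and lower in 1 (17.4% of all genes). The most abundant were *Itga3* (1.49 to 4.29 TPM), *Itga5* (1.36 to 3.37 TPM), *Itga7* (1.07 to 3.24 TPM), *Itgb5* (0.980 to 1.84 TPM) and *Itga10* (0.6 to 0.71 TPM). *Itgb5*, another partner of αV, was the one subunit of the 11 whose unadjusted p-value lay below 0.05 in edgeR, against 3.62% of all genes. Its unadjusted p-value in DESeq2 was 0.0679. It had 3.46 and 3.43 CPM in the EV RV and 2.01 and 2.26 CPM in the Tox RV libraries, a log2 fold change of -0.69 (SE 0.27, edgeR adjusted p = 0.897). *Itga5*, the fibronectin receptor chain, had a log2 fold change of -0.51 (SE 0.36) and *Itga3*, a laminin receptor chain, one of -0.54 (SE 0.42).

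Genes that activate integrins from inside the cell ranged from too few counts to test (*Fermt1* and *Fermt2*) to 849 to 1073 CPM (*Flna*, filamin A). Talin (*Tln1*), which binds β tails and unfolds the receptor, had 615 and 451 CPM in the EV RV and 542 and 512 CPM in the Tox RV libraries. Kindlin-3 (*Fermt3*), its partner in blood cells, had 218 and 246 CPM in the EV RV and 297 and 263 CPM in the Tox RV libraries. They did not overlap, and Tox RV was the higher group. *Rap1b*, the small GTPase upstream of talin, had 249 and 243 CPM in the EV RV and 229 and 212 CPM in the Tox RV libraries. Of 22 genes on this list 20 could be tested, and 10 were above and 10 below 0 in log2 fold change (median 0.01). None passed an adjusted or an unadjusted p-value of 0.05 in edgeR. In DESeq2 *Rasgrp2* had an unadjusted p-value of 0.0469. The groups did not overlap in 10 of the 20, with Tox RV higher in 8 (18.6% of all genes) and lower in 2 (17.4% of all genes), *Rap1b* and *Cyth1*. The 8 were *Fermt3*, *Rasgrp2* and *Skap1*, which were set by name, and *Rap1a*, *Rassf5*, *Skap2*, *Itgb1bp1* and *Flna*. The latter genes and *Cyth1* were named after their values were seen.

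*Rasgrp2*, an exchange factor that loads Rap1 with GTP, had 14.1 and 7.78 CPM in the EV RV and 17.4 and 16.8 CPM in the Tox RV libraries (log2 fold change 0.65, SE 0.31, edgeR adjusted p = 0.897). *Rasgrp1*, which acts on Ras downstream of the T cell receptor, was at a log2 fold change of -0.06 (SE 0.23). The adaptor *Skap1* had 53.7 and 64.0 CPM in the EV RV and 70.6 and 78.5 CPM in the Tox RV libraries, a log2 fold change of 0.34 (SE 0.18). *Fyb*, which encodes the adaptor ADAP that binds SKAP1, had 181 and 92.4 CPM in the EV RV and 102 and 104 CPM in the Tox RV libraries and a log2 fold change of -0.40 (SE 0.32). EV RV replicate 1 was its high library, as in *Itgal* and *Itga4*.

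Of 20 genes that signal from bound integrins, 18 could be tested, and 8 were above and 10 below 0 in log2 fold change, with a median of -0.05. None was past an unadjusted p-value of 0.05 in edgeR. In DESeq2 *Actn4*, named after its values were seen, had an unadjusted p-value of 0.0373. The groups did not overlap in 3 of the 18, a lower share than the 36.0% of all genes, with Tox RV higher in 2 and lower in 1. The kinase gene *Ptk2b* (PYK2) had 148 and 89.7 CPM in the EV RV and 179 and 133 CPM in the Tox RV libraries, which overlapped (log2 fold change 0.40, SE 0.29). Among 7 membrane partners of integrins, 2 were above and 5 below 0 in log2 fold change, with a median of -0.18 and none past an unadjusted p-value of 0.05. *Slc3a2*, the CD98 heavy chain that binds β1 tails, had 178 and 175 CPM in the EV RV and 167 and 141 CPM in the Tox RV libraries (log2 fold change -0.20, SE 0.17).

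Of 18 ligand genes 11 could be tested, and 6 were above and 5 below 0 in log2 fold change, with a median of 0.06 and 0 past an adjusted p-value of 0.05. In edgeR an unadjusted p-value below 0.05 was found for 3 of the 11, against 3.62% of all genes. These 3, *Lamb1*, *Lama5* and *Lamc1*, encode laminin chains. *Lamb1* met the count filter through the Tox RV libraries, where it was high, so its p-value and direction were not read. *Lama5* and *Lamc1* were lower in Tox RV cells, with unadjusted p-values of 0.0124 and 0.0507 in DESeq2. *Lamc1* had 73.9 and 76.4 CPM in the EV RV and 53.5 and 55.2 CPM in the Tox RV libraries, a log2 fold change of -0.47 (SE 0.16, edgeR adjusted p = 0.897). *Lama5* had 103 and 98.7 CPM in the EV RV and 75.1 and 46.5 CPM in the Tox RV libraries, a log2 fold change of -0.73 (SE 0.26, edgeR adjusted p = 0.897). Neither gene overlapped between the groups, and in both Tox RV was the lower group. They were the 2 of the 11 on that side (17.4% of all genes). The 2 on the higher side (18.6% of all genes) were *Lamb1* and *Icam4*, the latter named after its values were seen. *Icam4* had 7 and 27 counts in the EV RV and 31 and 22 counts in the Tox RV libraries. Both genes needed the Tox RV libraries to meet the count filter, so their side was not read against that share. *Lamb1* had 13 and 10 counts in the Tox RV libraries against 3 in either EV RV library, too few for a fold change to be given. The LFA-1 ligand genes *Icam1* and *Icam2* overlapped between the groups, with log2 fold changes of 0.18 (SE 0.22) and -0.19 (SE 0.26). *Icam1* lay between 76.4 and 111 CPM. In all 5 of these lists DESeq2 called 0 genes at an adjusted p-value below 0.05.

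**Figure D5:**
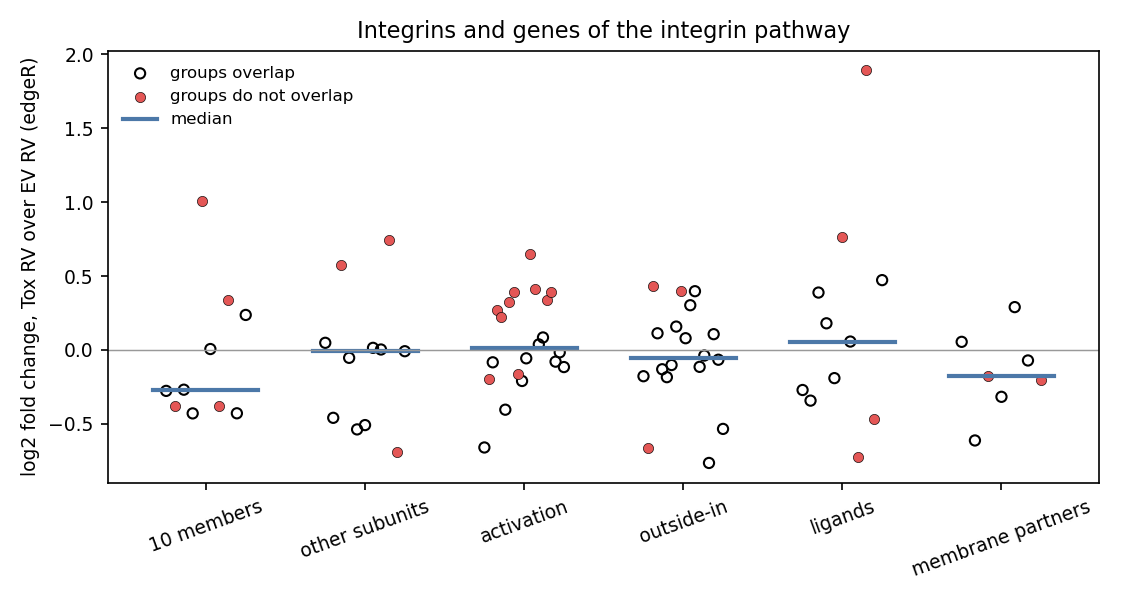
Log2 fold change of each tested gene in the 10 members and 5 related lists, with lists side by side, filled points where the Tox RV and EV RV libraries do not overlap and a bar at the median. The medians lie between -0.27 (members, 0.36 without EV RV replicate 1) and 0.06 (ligands), and the highest point among the ligands is *Lamb1*, a gene of at most 13 counts per library.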

How the data were processed

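RNA-seq was carried out on 4 libraries of sorted GFP+ CD4 T cells, 2 EV RV and 2 Tox RV, grouped by their sample titles. According to the methods, the authors checked reads with fastqc, aligned them to mm10 transcripts with bowtie1 and quantified genes with RSEM. The sample records name Bowtie2 as well as Bowtie. The deposited expected counts are estimates of reads per gene, not normalized, and the deposited TPM values are RSEM's length-corrected abundances, scaled to a fixed sum per library. TPM sums include *Rn45s*. A table of all samples, deposited as TPM but on another scale, was not used.

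In R 4.3.3 the expected counts, rounded to integers, were fitted with edgeR 4.0.16 (filterByExpr with a minimum count of 10, TMM scaling, glmQLFit and glmQLFTest, no replicate block, Benjamini-Hochberg adjustment over all genes tested). The standard error was derived from the fold change and the F statistic, and the 95% interval from its degrees of freedom (median 5.77). SDs and tests measure the spread of 2 libraries per group, and 2 against 2 cannot reach an exact permutation p-value of 0.05. DESeq2 1.42.0, limma 3.58.1 on log2(TPM + 1) and log2(TPM + 0.1), other scalings, no filter, a replicate block and leaving out each library were alternatives. Positions come from GENCODE M21 (GRCm38) and upstream windows from a RefSeq promoter table, in which 5 of the 10 members were matched.

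The members and gene lists were chosen with earlier results of these data known. Named were all members, list genes at an unadjusted p-value below 0.05, the 5 most abundant other subunits and core pathway genes set by name, with exceptions stated as chosen after their values were seen.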

Additional observations from a re-analysis of the deposited data

How the results depend on the processing

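No member passed an adjusted p-value of 0.05 under any alternative, where the smallest value was 0.0666, for *Itga4* without EV RV replicate 2. Of 80 member values under alternatives that kept all 4 libraries, 5 changed sign, all of them *Itgav*. Its log2 fold change of 0.01 became -0.000193 with RLE scaling, -0.033 with totals that leave out *Rn45s*, -0.00575 with the replicate block, -0.086 with limma on log2(TPM + 1) and -0.088 with limma on log2(TPM + 0.1). With each library left out, 8 of 40 values changed sign, in 6 members, with ranges of -0.91 to 0.30 for *Itgal*, -0.74 to 0.41 for *Itga4*, -0.11 to 0.69 for *Itgb7*, -0.20 to 0.18 for *Itgav*, -0.82 to 0.10 for *Itgb3* and -0.90 to 0.62 for *Itgae*. The median of the members ranged from -0.20 to 0.36 in these fits, the highest without EV RV replicate 1. Members at an unadjusted p-value below 0.05 numbered 0 in the report, 1 (*Itgb2*) with scaling by library totals, which moved the median of all genes to 0.124, and 0 to 4 with a library left out. The fits without the low-count filter and with DESeq2 covered 19286 genes against 14143 in the report, so their counts of list genes run over a larger set. List genes at an unadjusted p-value below 0.05 numbered 4 in the report, where 3.62% of all genes tested lay at that level. They numbered 7 without the low-count filter, 10 with the replicate block and 5 in DESeq2. They numbered 3 with library totals and with either limma fit, and 4 to 21 with a library left out. The 21 belonged to the fit without EV RV replicate 2. Among the fits with a library left out, it also had the largest share of all genes at that level. For the alternatives that kept all 4 libraries, no share of all genes at that level is given. The counts of members and list genes were therefore not taken as a response of these genes. Over all genes, calls at an adjusted p-value below 0.05 numbered 0 in the report, 22 in DESeq2, 22 without the filter, 16 with the replicate block and 1 to 600 with a library left out, the most without EV RV replicate 2. The causes of these shifts were not tested. Libraries of the same number deviated together (correlation 0.302 across genes), but no source ties a replicate number to a mouse, and with the replicate block 0 members passed an adjusted p-value of 0.05. With 2 libraries per group, single outlying libraries could not be tested for, and *Itgam* rests on 11 to 44 counts per library.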
